A study of Mus musculus with 64 samples.

Results

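Type I interferon-stimulated genes are the genes that cells switch on when interferon-alpha or interferon-beta binds its receptor. A set of 40 of them was taken by gene name, and all 40 were found among the 55381 genes of the deposited mouse gene table. The 40 genes were followed in RNA-seq of 8 primary mammary tumors from 4 female mice, with 2 tumors per mouse and 1 mouse per genotype. All 4 mice carried the PyMT oncogene (polyoma middle T, PyVT in the labels) and at least 1 floxed Abi1 allele. Mouse G144 was the heterozygous control (fl/wt, Cre-; tumors 6 and 8), and mouse G164 was the heterozygous Abi1 knockout (fl/wt, Cre+; tumors 3 and 6). Mouse G184 was the homozygous control (fl/fl, Cre-; tumors 6 and 9), and mouse G174 was the homozygous Abi1 knockout (fl/fl, Cre+; tumors 1 and 6). They are called het control, het KO, hom control and hom KO here.

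The Cre transgene was driven by the MMTV promoter, which is active in mammary epithelium, so deletion of floxed Abi1 is aimed at the epithelial cells of a tumor. Recombination in single cell types was not measured here. The Cre line was of mixed strain and the other lines were C57BL6. Ages were not in the labels, and in the study's histology records the het KO and hom control mice were older than the other pair. With 1 mouse per genotype, genotype, age and any other trait of a mouse cannot be told apart, and every p-value from a comparison of single mice measures the spread between tumors of the same mouse. Gene counts ranged from 50346075 to 69264893 per tumor, which left all 40 genes above the filter on low counts. Abi1 read 111 and 130 counts per 1000000 reads counted in genes (CPM) in the het control, 63.1 and 66.7 in the het KO, 114 and 122 in the hom control, and 8.93 and 6.47 in the hom KO, so it followed the labels. The mammary epithelial markers Epcam, Krt8 and Krt18 were each above 600 CPM in all 8 tumors, and the skeletal muscle genes Acta1, Ckm, Mylpf, Tnnt3 and Myh4 summed to 208 CPM in tumor 8 of the het control and 260 CPM in tumor 3 of the het KO, against at most 2.16 CPM in the other tumors.

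Interferon-alpha and interferon-beta are made after sensors such as RIG-I, MDA5 or Toll-like receptors detect nucleic acid in the wrong place. They bind the IFNAR receptor and activate the kinases JAK1 and TYK2, and a complex that contains STAT2 and IRF9 then binds the interferon-stimulated response element in the promoters of target genes. The products of these genes degrade viral RNA, block translation, tag proteins with ISG15 or amplify the response itself. In tumors the same genes are expressed both by malignant cells and by infiltrating leukocytes, and in bulk tissue a change in the number of cells of a type and a change in RNA per cell cannot be told apart.

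Promoter sequence was available from RefSeq (GRCm38.p6) for 29 of the 40 genes, as windows from 250 bases before to 50 bases after a transcription start. The core of the response element was searched as GAAANNGAAA, and as TTTCNNTTTC for the other strand, where N is any base and matches were allowed to overlap. It was present in the windows of 13 of the 29 genes (44.8%), and in those of 1079 of the 27025 genes in the promoter table (3.99%). At least 2 matches in a single window were found for 6 of the 29 genes and for 72 of the 27025 genes (0.266%). A match is a description of the letters and not a measured binding site, and the members were chosen as known interferon targets. The 200 bases before the start are shown, 5' to 3' on the gene's own strand, for the genes the results turn on, with the matched bases in capitals. The first 4 are Isg15, whose window holds 3 overlapping matches, the paralogs Ifit3 and Ifit3b, and Oas3, which had the widest range across mice of the genes with a match. They lie at chr4:156200819-156201018 on the minus strand, chr19:34583329-34583528 and chr19:34607757-34607956 on the plus strand, and chr5:120777660-120777859 on the minus strand.
Isg15: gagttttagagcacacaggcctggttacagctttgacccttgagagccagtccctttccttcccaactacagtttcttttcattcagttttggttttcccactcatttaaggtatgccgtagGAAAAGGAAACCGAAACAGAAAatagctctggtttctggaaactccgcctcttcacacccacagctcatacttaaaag
Ifit3: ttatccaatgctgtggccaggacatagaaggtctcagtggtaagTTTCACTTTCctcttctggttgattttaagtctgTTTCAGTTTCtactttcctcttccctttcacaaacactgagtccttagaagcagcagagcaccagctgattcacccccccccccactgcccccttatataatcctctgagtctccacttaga
Ifit3b: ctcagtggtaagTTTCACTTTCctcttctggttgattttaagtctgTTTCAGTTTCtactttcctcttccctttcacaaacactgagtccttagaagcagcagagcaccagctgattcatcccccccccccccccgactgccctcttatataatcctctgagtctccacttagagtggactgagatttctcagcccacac
Oas3: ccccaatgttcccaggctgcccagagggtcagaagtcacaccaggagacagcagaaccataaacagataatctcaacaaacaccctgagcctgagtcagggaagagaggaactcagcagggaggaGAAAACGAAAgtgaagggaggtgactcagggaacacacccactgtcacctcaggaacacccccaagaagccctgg
The Ifit3 and Ifit3b windows hold the same pair of matches at the same spacing. With the first window shifted by 32 bases, 138 of the 168 compared bases were identical. The stretches before Ifi44 (chr3:151749911-151750110, minus strand) and before Ifi44l (chr3:151762892-151763091, minus strand) are shown because these adjacent genes parted in 1 mouse.
Ifi44: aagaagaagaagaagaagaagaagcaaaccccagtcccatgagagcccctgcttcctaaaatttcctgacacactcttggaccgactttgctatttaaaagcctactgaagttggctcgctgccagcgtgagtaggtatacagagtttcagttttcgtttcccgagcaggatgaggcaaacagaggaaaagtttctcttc
Ifi44l: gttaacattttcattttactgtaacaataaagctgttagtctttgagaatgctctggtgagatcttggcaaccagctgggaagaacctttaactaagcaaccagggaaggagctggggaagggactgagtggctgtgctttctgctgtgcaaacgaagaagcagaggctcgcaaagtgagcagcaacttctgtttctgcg
Neither stretch holds the searched letters, which says nothing about whether the element is present elsewhere at these genes. Levels across mice did not separate by the motif. The median log2 fold change of the hom control over the het control was 2.04 for the 13 genes with a match, 1.54 for the 16 without one and 2.02 for the 11 with no window, and the ranges overlapped.

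The 40 genes shared 1 pattern across the mice. Mean CPM fell in the order hom control, het KO, hom KO, het control for 35 of the 40 genes. In 3 more, Mx1, Dtx3l and Rtp4, the hom control was again first and the het control last, with the hom KO above the het KO. The exceptions were Ifi27, which varied little, and Ifi44l, which was nearly absent from the hom control. The hom control and het KO, which led the order of the 35 genes, were the older mice in the study's histology records. The part of age was not tested. Tumor 9 of the hom control had the highest level of 36 genes, and tumor 6 of the het control had the lowest level of 37. Summed over the 40 genes, the level was 1994 and 2337 CPM in the het control, 5033 and 4002 CPM in the het KO, 6005 and 7824 CPM in the hom control, and 3828 and 2869 CPM in the hom KO. The tumors of the 4 mice therefore did not overlap in this sum. Per gene, the median level relative to the het control mean was 2.51-fold and 2.04-fold in the 2 het KO tumors, 2.80-fold and 3.98-fold in the hom control, and 1.77-fold and 1.33-fold in the hom KO.

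**Figure D1:**
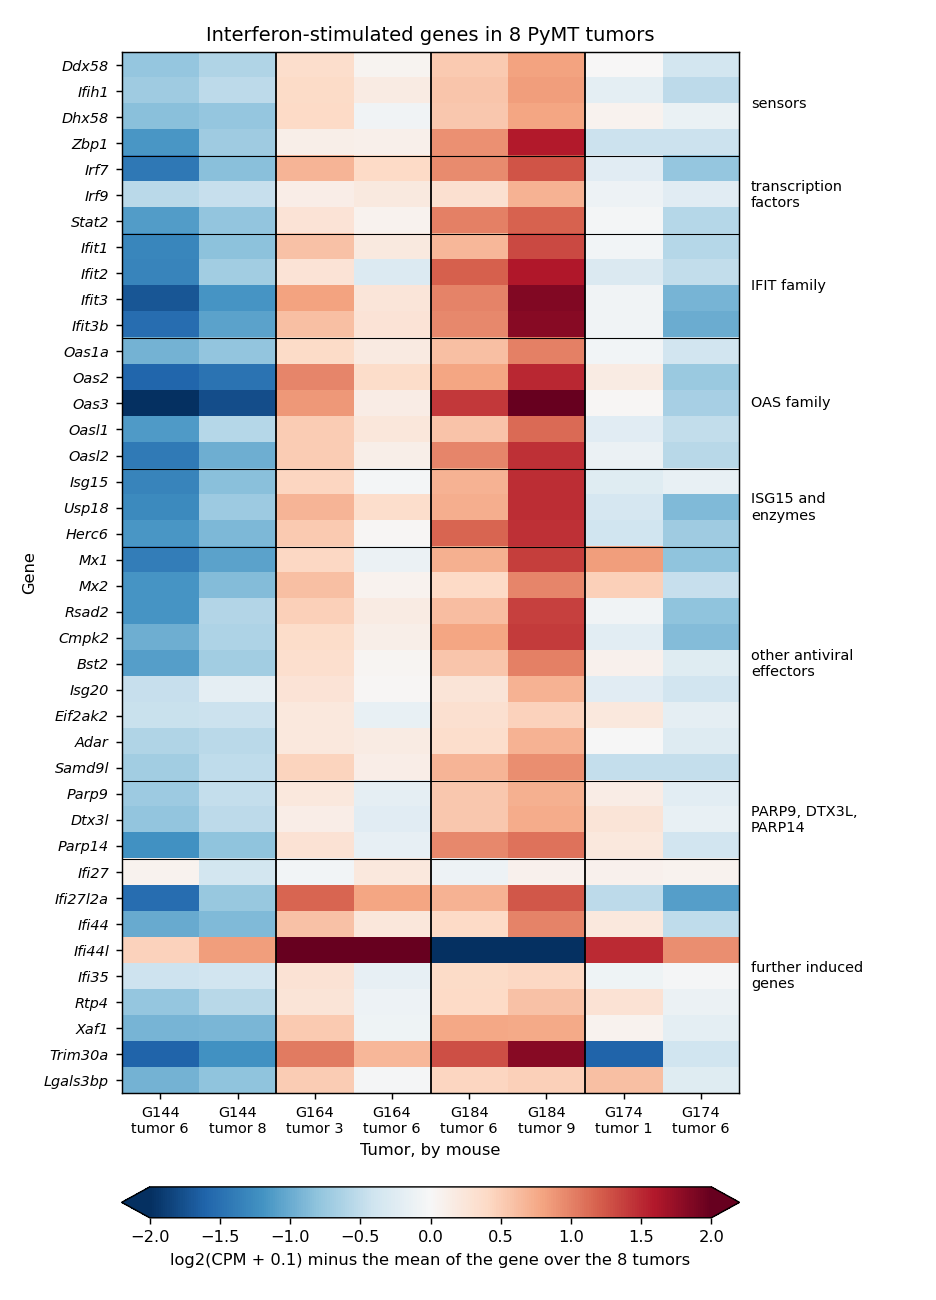
Level of each of the 40 genes (rows, grouped by role) in each of the 8 tumors (columns, grouped by mouse), as log2(CPM + 0.1) minus the mean of the gene over the 8 tumors. The het control columns (G144) are blue and the hom control columns (G184) red for nearly all genes, Ifi27 is pale throughout, and Ifi44l is dark blue in G184 alone.

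The genes also moved together between the 2 tumors of a mouse. In the het control, 39 of the 40 were higher in tumor 8 than in tumor 6. In the het KO 38 were higher in tumor 3, in the hom control 38 were higher in tumor 9, and in the hom KO 35 were higher in tumor 1. The median absolute log2 difference between the tumors of a mouse was 0.31 to 0.43 over the 40 genes, and 0.17 to 0.26 over all genes tested. The genes thus differed more between tumors of the same mouse than the median gene did. The widest difference in each direction within the hom KO was in Mx1 and Trim30a, which were singled out after their values were seen. Mx1 was 77.8 CPM in tumor 1 and 25.1 CPM in tumor 6, with the majority, while Trim30a was 19.5 CPM in tumor 1 and 45.3 CPM in tumor 6, against it. The sums in the 2 tumors that held skeletal muscle transcripts were the higher of their mice, and the part of that tissue in the sums was not tested.

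The heterozygous comparison set the het KO mouse against the het control mouse. Loss of 1 Abi1 allele cannot be told apart here from other differences between the mice. All 40 genes had a positive log2 fold change of het KO over het control, with a median of 1.15 (2.22-fold) against 0.02 over all 22187 genes tested. In edgeR's quasi-likelihood test 21 of the 40 were higher at an adjusted p under 0.05 and none lower, while 2.72% of all genes tested were called higher and 1.29% lower. Both het KO tumors lay above both het control tumors for 39 of the 40, all but Ifi27, as they did for 31.3% of all genes tested. With any 1 of these 4 tumors left out, none or 1 of the 40 was called (1 without tumor 6 of the het KO), and none was called without the 2 tumors that held skeletal muscle transcripts, although the median stayed between 0.95 and 1.31. Calls over all genes fell as well, from 604 higher to between 9 and 111 with 1 of these tumors left out and to 1 without the tumors with muscle.

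The homozygous comparison set the hom KO mouse against the hom control mouse, with the same limit. The direction of its changes was opposite to that of the heterozygous comparison. The median log2 fold change of hom KO over hom control was -1.07, a level 2.09-fold lower, against -0.00119 over all genes tested. In this comparison 28 of the 40 were called lower and 1 higher, against 7.70% and 5.44% of all genes tested. Both hom KO tumors lay below both hom control tumors for 35 genes, as for 29.9% of all genes tested. The overlapping genes were Ifi27, Lgals3bp, Mx1 and Mx2, and Ifi44l lay above. The count called lower fell to 3 without tumor 9 of the hom control, to 11 without tumor 6 of the hom KO and to 9 without the 2 tumors that held skeletal muscle transcripts, with medians between -0.86 and -1.29 when 1 of the 8 tumors was left out. Over all genes the count called lower was 1709, and it was 445, 1161 and 563 in those fits. Of the 40 genes, 19 were called higher in the heterozygous and lower in the homozygous comparison, 9 were called only lower in the homozygous comparison, and 10 were called in neither.

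The test of the difference between the comparisons used all 4 mice. The log2 fold change was lower in the homozygous than in the heterozygous comparison for 39 of the 40 genes. It was called lower for 37 and called higher for 1, Ifi44l, against 13.1% and 12.0% of all genes tested. The median difference was -2.20 on the log2 scale. Mx1, at -2.25 (standard error of the fit, SE, 0.71, adjusted p = 0.0571), and Ifi27, at -0.13 (SE 0.23, adjusted p = 0.705), were not called. The count was 21 without the 2 tumors that held skeletal muscle transcripts, where the count called lower over all genes was 932 in place of 2907.

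**Figure D2:**
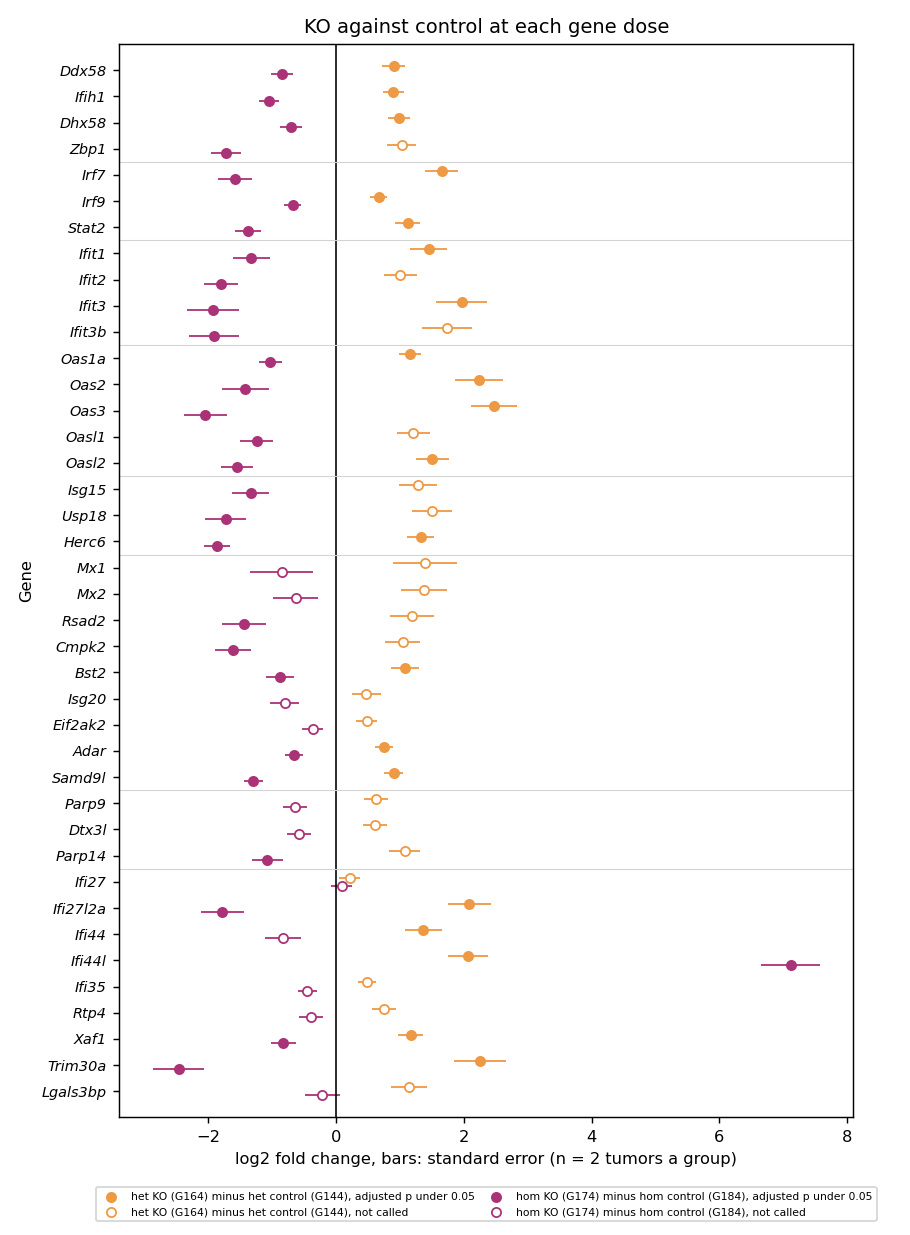
Log2 fold change (horizontal axis) of KO over control for each of the 40 genes in the heterozygous (orange) and homozygous (purple) comparison, with standard errors from the edgeR fit and 2 tumors a group. Orange points lie right of 0 for all 40 genes, purple points lie left of 0 for 38, and filled points passed an adjusted p of 0.05.

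The 2 Cre- control mice also differed from each other. The median log2 fold change of the hom control over the het control was 1.73 (3.32-fold), farther from 0 than the medians of either KO against its control, with 37 genes called higher and 1 lower, against 6.17% and 6.40% of all genes tested. Both hom control tumors lay above both het control tumors for 38 genes, as for 31.1% of all genes tested. These mice carry intact Abi1, and Abi1 itself differed between them by -0.03 on the log2 scale (SE 0.16, adjusted p = 0.918). The heterozygous and homozygous comparisons each use 1 of these 2 mice as the control, so their values are not independent of this one. The count fell to 5 without tumor 6 of the het control, to 18 without tumor 9 of the hom control, and to 2 without the 2 tumors that held skeletal muscle transcripts. Over all genes the count called higher was 1368, and it was 125, 272 and 60 in those fits.

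The 2 KO mice were closer to each other. The median log2 fold change of hom KO over het KO was -0.48. In this pair 4 of the 40 were called lower and none higher, against 5.31% and 1.79% of all genes tested. Both hom KO tumors lay below both het KO tumors for 27 genes, as for 30.1% of all genes tested. An unadjusted p under 0.05 was found for 19, and for 5873 of all 22187 genes tested. DESeq2 called 8 lower and none higher, against 1964 and 1166 of all genes. The 4 were Samd9l, Ifi27l2a, Ifi44l and Trim30a. None of the 40 was called when tumor 3 or tumor 6 of the het KO, or tumor 1 of the hom KO, was left out, and 1 was without tumor 6 of the hom KO and 2 without either tumor of the het control. Over all genes the count called lower fell from 1178 to between 132 and 620 without 1 tumor of the KO mice. The hom KO was also set against the het control, a pair chosen after the data were seen. All 40 genes had a positive log2 fold change, with a median of 0.61 (1.53-fold) and both hom KO tumors above both het control tumors for 34 genes, against 19.2% of all genes tested. None was called at an adjusted p under 0.05 in edgeR (26 at an unadjusted p under 0.05, as were 2743 of all genes tested), where 0.0361% of all genes tested were called higher and 0.0541% lower, and DESeq2 was not run for this pair. In the other added pair, hom control over het KO, the median was 0.55. None of the 40 was called higher and Ifi44l was called lower in edgeR, against 0.176% and 0.248% of all genes tested. An unadjusted p under 0.05 was found for 23, and for 1716 of all genes tested. Both hom control tumors lay above both het KO tumors for 32 genes and below for 1, against 20.1% and 20.6% of all genes tested. With the mouse as the unit and Cre+ mice set against Cre- mice, 0 of the 40 genes were called in either direction by edgeR or DESeq2, none had an unadjusted p under 0.05, and edgeR called 0% of all 23281 genes tested higher and 0% lower. Over all genes 191 had an unadjusted p under 0.05 in edgeR, and DESeq2 called 24 higher and 1 lower.

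Among the sensors of foreign nucleic acid, Ddx58 (RIG-I), Ifih1 (MDA5) and Dhx58 (LGP2) bind viral RNA in the cytosol and Zbp1 binds Z-form nucleic acid. Of the 4, 3 were called higher in the heterozygous comparison and all 4 lower in the homozygous one. Ifih1 was the most abundant, at 122 and 138 CPM in the het control, 260 and 224 CPM in the het KO, 292 and 358 CPM in the hom control, and 175 and 139 CPM in the hom KO. The tumors of the het KO and hom control were all above those of the other pair of mice. Its log2 fold change was 0.89 (SE 0.16, adjusted p = 0.0381) in the heterozygous and -1.05 (SE 0.16, adjusted p = 0.0119) in the homozygous comparison. The other members of the group had log2 fold changes of 0.90 to 1.03 and of -0.70 to -1.72, with Zbp1 farthest from 0 in both and not called in the heterozygous comparison (adjusted p = 0.0560).

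The transcription factors STAT2 and IRF9 are subunits of the complex that binds the response element, and IRF7 is the factor that amplifies interferon-alpha production. All 3 genes were called higher in the heterozygous and lower in the homozygous comparison. Irf7 was the most abundant, at 81.8 and 124 CPM in the het control, 354 and 292 CPM in the het KO, 426 and 528 CPM in the hom control, and 189 and 130 CPM in the hom KO. The hom KO tumors lay above the het control tumors, the lower of them only just. Irf7 rose by 1.65 on the log2 scale (SE 0.26, adjusted p = 0.0293) in the heterozygous comparison and fell by 1.58 (SE 0.26, adjusted p = 0.0140) in the homozygous one. Irf9 had the smallest changes of the 3, at 0.66 and -0.68.

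The IFIT proteins bind viral RNA and block its translation. The 4 genes lie in a cluster on chromosome 19, and Ifit3 and Ifit3b are near-identical copies whose reads could be split between them or lost, since reads that match several places were not counted. All 4 were called lower in the homozygous comparison, and Ifit1 and Ifit3 higher in the heterozygous one. Ifit3 read 34.8 and 50.4 CPM in the het control, 198 and 134 CPM in the het KO, 226 and 411 CPM in the hom control, and 108 and 59.6 CPM in the hom KO. It had the highest level per length of the 40 genes, 87.6 CPM per kilobase of exon averaged over tumors. Tumor 9 of the hom control stood apart from every other tumor for this gene. Its log2 fold changes were 1.97 (SE 0.41, adjusted p = 0.0481) and -1.93 (SE 0.40, adjusted p = 0.0272). Ifit3b ran in parallel at a lower level, from 14.1 and 19.4 CPM in the het control to a mean of 112 CPM (SD 45.9, n = 2) in the hom control, with 61.8 and 49.2 CPM in the het KO and 38.8 and 20.4 CPM in the hom KO. Its changes were 1.73 (SE 0.39, adjusted p = 0.0567) and -1.92 (SE 0.39, adjusted p = 0.0246).

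The OAS enzymes make 2'-5'-linked oligoadenylates that activate RNase L, which cuts RNA, while the OASL proteins are related members of the family. All 5 genes were called lower in the homozygous comparison and all but Oasl1 higher in the heterozygous one. Oasl2, the most abundant, read 46.1 and 62.1 CPM in the het control, 175 and 133 CPM in the het KO, 241 and 337 CPM in the hom control, and 113 and 83.2 CPM in the hom KO, and its changes were 1.51 (SE 0.25, adjusted p = 0.0326) and -1.56 (SE 0.25, adjusted p = 0.0137). Oas3 and Oas2 lie next to each other on chromosome 5. Oas3 read 5.06 and 6.15 CPM in the het control, 38.6 and 23.5 CPM in the het KO, 56.5 and 87.7 CPM in the hom control, and 21.5 and 13.4 CPM in the hom KO. The 4 mice did not overlap, and the hom control mean was 12.9 times that of the het control. Apart from Ifi44l this was the widest ratio between mice. Oas3 had the largest change of the 40 in the heterozygous comparison, 2.47 (SE 0.35, adjusted p = 0.0257), and -2.05 (SE 0.34, adjusted p = 0.0151) in the homozygous one. Oas2 read 18.4 and 19.9 CPM in the het control, 110 and 71.7 CPM in the het KO, 96.5 and 159 CPM in the hom control, and 62.2 and 33.3 CPM in the hom KO, so that the het KO and hom control overlapped. Its changes were 2.24 (SE 0.37, adjusted p = 0.0322) and -1.42 (SE 0.36, adjusted p = 0.0464).

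ISG15 is a ubiquitin-like protein, HERC6 is its main ligase in the mouse and USP18 removes it and restrains the interferon receptor. All 3 genes were called lower in the homozygous comparison. Herc6, which has the most reads of the 3 but the fewest per length, was also called in the heterozygous comparison. It read 19.7 and 23.6 CPM in the het control, 63.4 and 45.1 CPM in the het KO, 99.0 and 121 CPM in the hom control, and 33.4 and 27.1 CPM in the hom KO, with changes of 1.32 (SE 0.21, adjusted p = 0.0287) and -1.86 (SE 0.21, adjusted p = 0.00509). The homozygous call for Herc6 held with each of the 8 tumors left out in turn, with adjusted p at most 0.0316. Isg15, whose promoter was shown for its 3 matches, read 17.0 and 23.8 CPM in the het control, 57.6 and 41.4 CPM in the het KO, 69.2 and 119 CPM in the hom control, and 35.9 and 38.6 CPM in the hom KO. Its changes were 1.28 (SE 0.29, adjusted p = 0.0592) and -1.34 (SE 0.29, adjusted p = 0.0303). Per length of exon it had rank 5 of the 40.

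The other direct antiviral effectors include the MX GTPases, the tetherin gene Bst2, viperin (Rsad2) and its neighbor Cmpk2 on chromosome 12, the exonuclease Isg20, the kinase PKR (Eif2ak2) that stops translation, the RNA editor Adar and Samd9l. In the heterozygous comparison 3 of the 9, Bst2, Adar and Samd9l, were called higher, and in the homozygous comparison the same 3 with Rsad2 and Cmpk2 were called lower. Eif2ak2 was the most abundant and among the least changed. It read 117 and 118 CPM in the het control, 184.2 and 143 CPM in the het KO, 198 and 219 CPM in the hom control, and 183.7 and 140 CPM in the hom KO. The KO mice overlapped, and neither change was called, at 0.48 (SE 0.17, adjusted p = 0.140) and -0.37 (SE 0.17, adjusted p = 0.183), though the hom control exceeded the het control by 0.83 (SE 0.17, adjusted p = 0.0258). Mx1 had the widest standard errors of the 40 in both comparisons, 0.51 and 0.50, with 16.8 and 20.9 CPM in the het control, 58.5 and 40.4 CPM in the het KO, 71.9 and 114 CPM in the hom control, and 77.8 and 25.1 CPM in the hom KO. Both Mx1 and Mx2 have the gene type polymorphic pseudogene in the deposited gene table. Isg20 had the lowest level per length of the 40 and at most 8.67 CPM in any tumor.

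PARP9, DTX3L and PARP14 form a small group on chromosome 16. PARP9 and DTX3L act as a pair that marks histones with ubiquitin, and PARP14 is an ADP-ribosyltransferase. None of the 3 was called in the heterozygous comparison, and Parp14 alone was called lower in the homozygous one. Parp14 read 114 and 150 CPM in the het control, 319 and 235 CPM in the het KO, 509 and 558 CPM in the hom control, and 303 and 202 CPM in the hom KO, with changes of 1.07 (SE 0.24, adjusted p = 0.0572) and -1.08 (SE 0.24, adjusted p = 0.0326). The hom control tumors were well above the rest, whose 2 KO mice overlapped. The KO mice differed by -0.14 to 0.10 on the log2 scale for these 3 genes, none called.

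**Figure D3:**
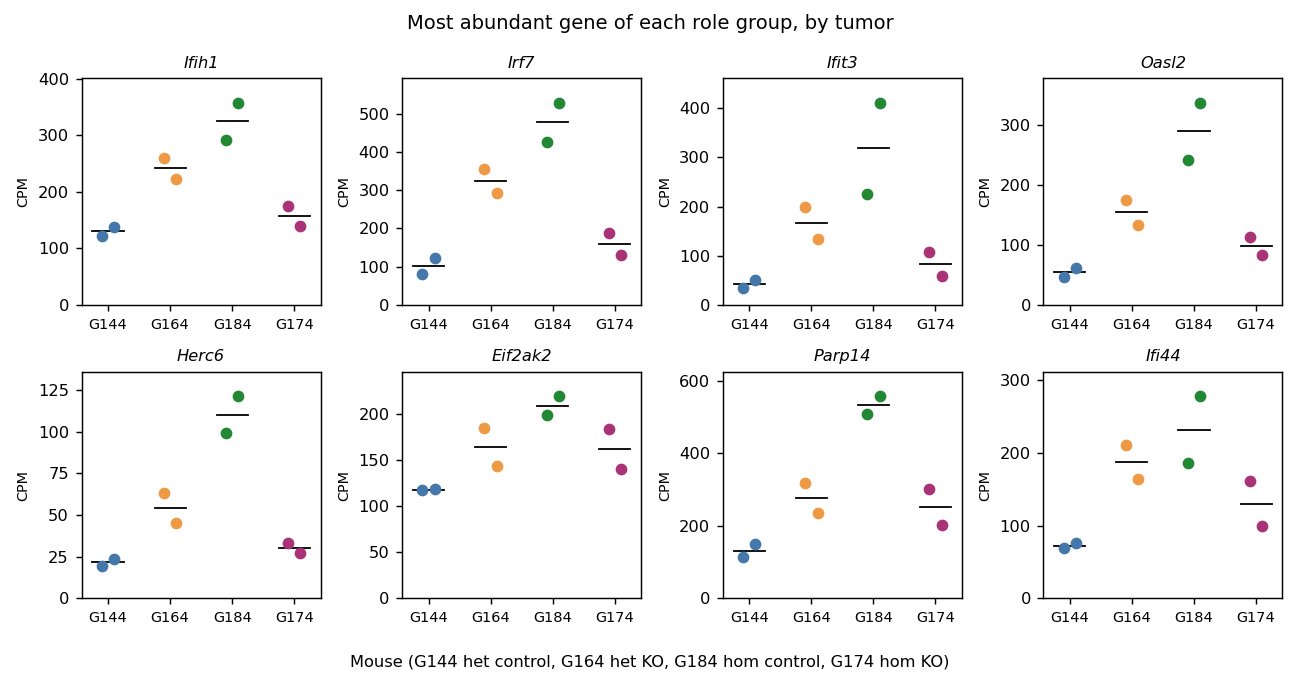
CPM (vertical axis, from 0) of the most abundant gene of each of the 8 role groups in each tumor, by mouse, with bars at the mean of the 2 tumors. The hom control (G184) mean is highest and the het control (G144) mean lowest in all 8 panels, and in Eif2ak2 the spread between mice is narrow.

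The further interferon-induced genes held both the least and the most changed members. Ifi27, a mitochondrial protein gene, read 133 and 98.5 CPM in the het control, 122 and 146 CPM in the het KO, 118 and 135 CPM in the hom control, and 134 and 133 CPM in the hom KO. The hom KO lay just above the het control, all other pairs of mice overlapped, the highest mouse mean was 1.16 times the lowest, and the gene was called in none of the comparisons. Per length of exon it nevertheless had rank 2 of the 40. Ifi27l2a, its neighbor on chromosome 12, followed the common order at lower counts, with 6.41 and 11.0 CPM in the het control, 41.8 and 32.1 CPM in the het KO, 30.3 and 44.2 CPM in the hom control, and 13.0 and 8.67 CPM in the hom KO. The hom KO here overlapped the het control. Its changes were 2.08 (SE 0.34, adjusted p = 0.0312) and -1.78 (SE 0.34, adjusted p = 0.0202), and the hom KO lay below the het KO by 1.77 (SE 0.34, adjusted p = 0.0299). Trim30a, a member of the TRIM family, read 19.6 and 25.8 CPM in the het control, 122 and 94.8 CPM in the het KO, 146 and 212 CPM in the hom control, and 19.5 and 45.3 CPM in the hom KO. It had the largest fall of the 40 in the homozygous comparison, -2.47 (SE 0.40, adjusted p = 0.0139), after 2.26 (SE 0.40, adjusted p = 0.0362) in the heterozygous one. Lgals3bp, Rtp4 and Ifi35 were called in neither comparison, with heterozygous changes of 0.48 to 1.14 and homozygous changes of -0.22 to -0.45.

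Ifi44 and Ifi44l are adjacent genes on the minus strand of chromosome 3, both known mainly for their induction by interferon. Ifi44, the most abundant of the group, read 69.4 and 76.0 CPM in the het control, 211 and 163.8 CPM in the het KO, 186 and 278 CPM in the hom control, and 162 and 98.9 CPM in the hom KO. It followed the common order and rose by 1.37 (SE 0.28, adjusted p = 0.0483) in the heterozygous comparison, with -0.83 (SE 0.28, adjusted p = 0.0930) in the homozygous one. Ifi44l read 4.89 and 6.33 CPM in the het control, 27.2 and 19.6 CPM in the het KO, and 10.1 and 6.79 CPM in the hom KO, which is the same order among these mice. In the hom control it read 0.0847 and 0.0311 CPM, from 8 reads in both tumors together. The gene was nearly absent from the mouse in which most of the other members were highest.

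The counts of Ifi44l were 674 in the het control, 2651 in the het KO and 1116 in the hom KO. Relative to all gene counts the hom KO level was 140-fold that of the hom control, with an exact 95% interval of 71.1 to 326 that covers counting error only. Each of the 16 lane files of each of the other mice held Ifi44l counts, against 6 of the 16 of the hom control, and both sequencing runs agreed, with 3 and 5 reads there. Counting both strands gave 100.1% of the reverse-strand total over all tumors for this gene. The edgeR log2 fold change was 7.12 (SE 0.46, adjusted p = 0.00088) in the homozygous comparison, the opposite of the other members called there, and -6.52 (SE 0.46, adjusted p = 0.00127) between the control mice. The homozygous call held with each of the 8 tumors left out in turn, with adjusted p at most 0.0153. The flanking genes Adgrl4 and Ptgfr were detected in both hom control tumors, at 15.5 and 16.2 CPM and at 1.30 and 3.99 CPM. Across the whole count table, 2 genes averaged below 0.1 CPM in the hom control and at least 5 CPM in each of the other 3 mice, Ifi44l and the predicted gene Gm10503, while no gene was so placed in any of the other 3 mice. These limits were chosen to describe the contrast already seen in Ifi44l, so its own place was fixed in advance. Whether the mice differ in sequence at Ifi44l was not tested.

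**Figure D4:**
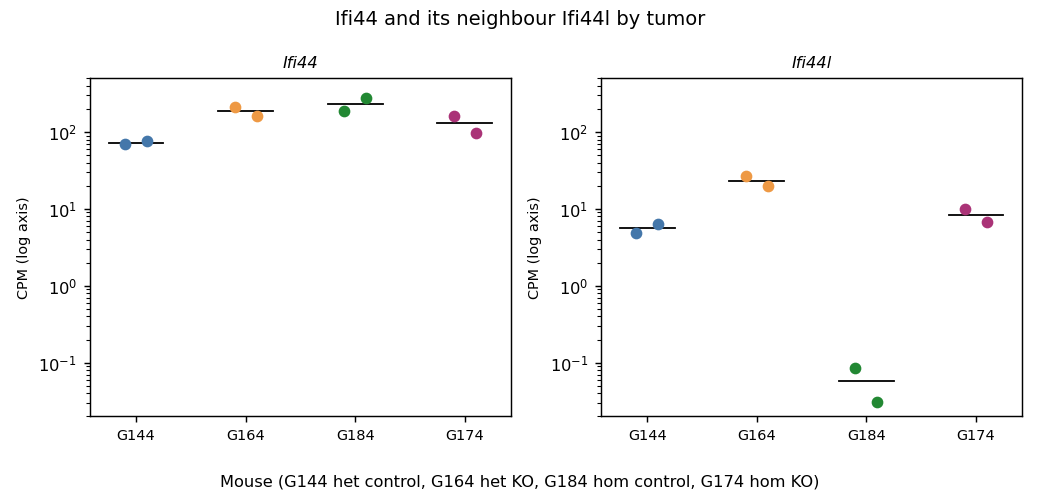
CPM on a log axis of the adjacent genes Ifi44 (left) and Ifi44l (right) in each tumor, by mouse, with bars at the mean of the 2 tumors. The 2 hom control tumors (G184) have the highest Ifi44 mean and sit below 0.1 CPM for Ifi44l, where the other 6 tumors lie between 4.89 and 27.2 CPM.

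The genes upstream of the response were listed by role. The 20 interferon ligands, which cover interferon-beta, the interferon-alpha genes, Ifnk, Ifne, Ifnz, Ifnl2 and Ifnl3, had 1 to 12 reads per tumor in all, none passed the filter on low counts, and Ifnb1 had at most 4 reads in a tumor. At this depth no difference in the RNA of these 20 ligands was detectable, and interferon-gamma was not in the list. The receptor genes, which include those for interferon-gamma and type III interferon, were expressed in every tumor. Their summed level was 291 and 309 CPM in the het control, 319 to 332 CPM in the het KO, 335 to 374 CPM in the hom control, and 362 to 378 CPM in the hom KO. Of the 6, none was called in the heterozygous comparison, and in the homozygous comparison Ifngr2 was called higher and Ifnlr1 and Ifngr1 lower. Ifnar1, a subunit of the type I receptor, read 80.3 and 83.4 CPM in the het control, 88.8 and 79.6 CPM in the het KO, 86.6 and 92.5 CPM in the hom control, and 110 and 103 CPM in the hom KO. Its levels did not follow the order of the induced genes.

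Of the 20 genes measured from a list for induction and signalling, 19 passed the filter. In the heterozygous comparison 5 were called higher and none lower, and in the homozygous comparison 7 were called lower and none higher. Irf5, Irf8, Tlr7, Tlr9 and Samhd1 were called in both, and Irf1 and Socs1 in the homozygous comparison alone. Irf1, which interferon-gamma also induces, read 104 and 100 CPM in the het control, 106 and 89.8 CPM in the het KO, 312 and 262 CPM in the hom control, and 95.5 and 100.7 CPM in the hom KO. It was thus high in the hom control and level in the other 3 mice, with changes of -0.06 (SE 0.13, adjusted p = 0.800) and -1.55 (SE 0.13, adjusted p = 0.00202). Irf1, Socs1 and Samhd1 were also the 3 of the list called higher in the hom control than in the het KO. Irf8 and Irf5 are expressed mainly by leukocytes. Irf8 read 10.95 and 13.9 CPM in the het control, 22.9 and 30.4 CPM in the het KO, 38.5 and 43.4 CPM in the hom control, and 11.0 and 10.52 CPM in the hom KO. Its hom KO level was not above that of the het control, unlike the levels of most of the 40 genes.

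Markers of leukocytes moved with the 40 genes in part. The 5 leukocyte genes Ptprc, Cd52, Coro1a, Laptm5 and Cd53 summed to 120 and 139 CPM in the het control, 280 and 315 CPM in the het KO, 323 and 358 CPM in the hom control, and 118 and 121 CPM in the hom KO. All 5 were called higher in the heterozygous comparison and lower in the homozygous one. The hom KO and het control tumors differed little in this sum, while their sums over the 40 interferon-stimulated genes did not overlap. For this pair, chosen after the data were seen, edgeR called none of the 40 genes and none of the 5 leukocyte genes. The 7 macrophage genes summed to 361 and 468 CPM in the het control, 550 and 627 CPM in the het KO, 651 and 830 CPM in the hom control, and 433 and 451 CPM in the hom KO. The 8 genes of T and NK cells summed to 9.92 to 10.4 CPM in the het control, 23.5 to 27.4 CPM in the het KO, 22.7 to 24.2 CPM in the hom control, and 6.17 to 6.59 CPM in the hom KO.

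Plasmacytoid dendritic cells are the strongest producers of interferon-alpha. Their 6 markers summed to 140 to 164.2 CPM in the het control, 185 to 197 CPM in the het KO, 162 to 163 CPM in the hom control, and 95.2 to 121 CPM in the hom KO, most of it from Tcf4, which other cells also express. Of these markers Siglech was at 0.945 and 1.09 CPM in the het control, 2.02 and 4.28 CPM in the het KO, 1.92 and 2.97 CPM in the hom control, and 0.305 and 0.316 CPM in the hom KO. Ccr9 alone of the 6 was called higher in the heterozygous comparison, where Siglech was not called (edgeR, adjusted p = 0.0687). Siglech, Ccr9 and Ly6d were called lower in the homozygous comparison. Between the control mice Ccr9 alone was called higher, and Spib (-1.58) and Tcf4 (-0.09) had negative log2 fold changes. The 5 B and plasma cell genes reached 204 to 322 CPM in the het KO and at most 31.6 CPM elsewhere, and the 5 neutrophil genes 77.4 CPM in 1 het KO tumor and at most 29.6 CPM elsewhere. The 6 fibroblast genes summed to 1582 to 1733 CPM in the het KO and 591 to 1192 CPM in the other mice, most of it from Col1a1 and Col1a2. Of the 6, only Pdgfra and Dcn were called higher in the heterozygous comparison, and Dcn was highest in tumor 9 of the hom control, at 211 CPM. The adipocyte genes reached 65.5 CPM in the het KO and at most 32.9 CPM elsewhere. The 7 mammary epithelial genes summed to between 3574 and 4266 CPM in all 8 tumors. The part of leukocytes and other cells in the levels of the 40 genes was not tested.

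**Figure D5:**
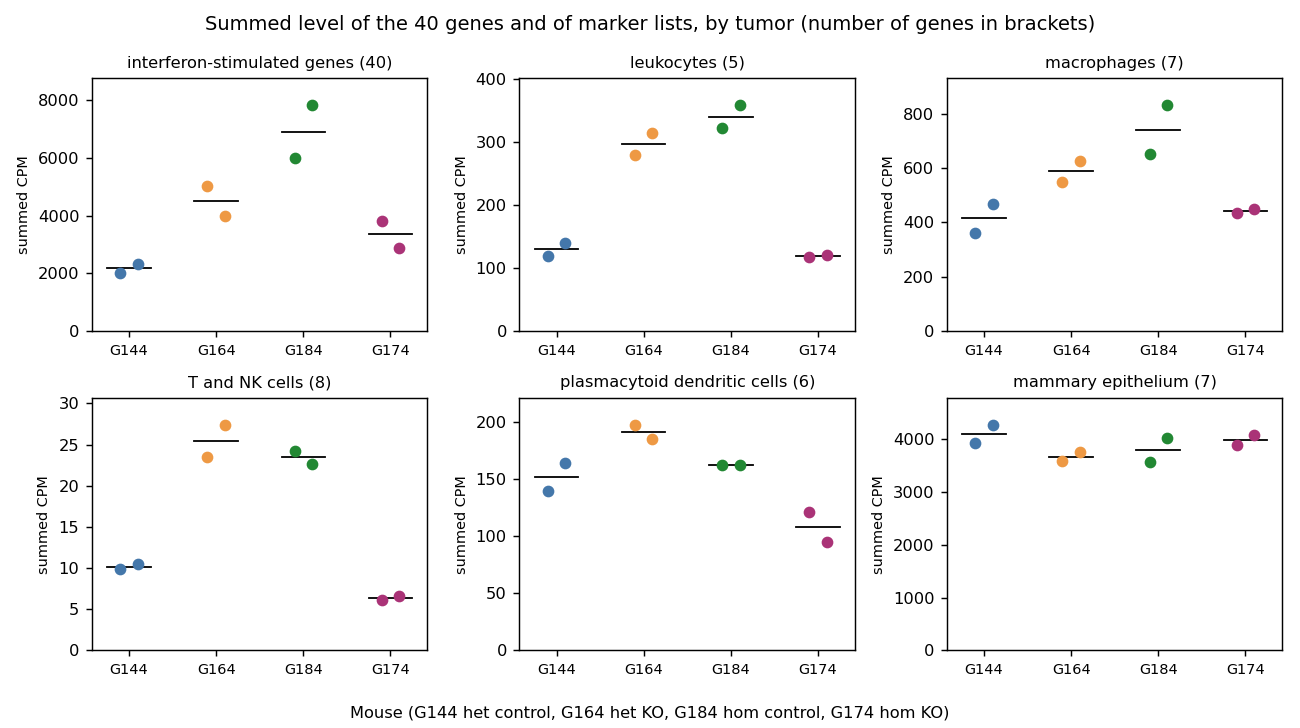
Summed CPM (vertical axis, from 0) of the 40 interferon-stimulated genes and of 5 marker lists in each tumor, by mouse, with bars at the mean of the 2 tumors. The interferon-stimulated and leukocyte sums are both high in G164 and G184, and in G174 the first lies above G144 while the second does not.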

How the data were processed

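Total RNA from 8 tumors was made into stranded libraries and sequenced in 2 runs of 4 lanes each. The authors deposited a table of gene counts for each of the 64 lane files, made with STAR on GRCm38, and a table of unstranded sums per mouse with gene names, whose values equalled the unstranded lane sums for all 55381 genes. Reverse-strand counts were summed over lanes and runs per tumor. Count-based tests were run with edgeR 4.0.16 (quasi-likelihood, TMM scaling, filterByExpr by mouse, Benjamini-Hochberg threshold 0.05) across 22187 genes with all 4 mice in 1 fit, and Cre was tested over mouse sums. Residual degrees of freedom were 4 over tumors and 2 over mice, and the common biological coefficient of variation was 0.2285. Levels are counts per 1000000 reads counted in genes (CPM) with TMM scaling, and levels per length use exon lengths of GENCODE M21. Promoter windows were RefSeq's. DESeq2 1.42.0 was an alternative. Scripts were tested on simulated data.

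Per-tumor values were given for the most abundant gene of each of 8 role groups, the 5 largest changes in each KO comparison, any gene with no count in both tumors of a mouse and any gene called in no comparison of single mice. For the receptor and signalling lists, up to 5 genes each could be named by mean CPM, which covers Ifnar1 and Irf1. Other abundant genes of the signalling list, such as Jak1, were not given per tumor. Genes named outside these rules were chosen after their values were seen (Isg15, Mx1, Mx2, Isg20, Irf8, Siglech and those given by call or range). The 40 genes and all lists were chosen with earlier results of these data known. No column of the deposited tables was left out for lack of a sample. A gene of the signalling list is not reported here.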

Additional observations from a re-analysis of the deposited data

Results flagged for a closer look

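The heterozygous and homozygous comparisons differed for nearly all of the 40 genes in the direct test of their difference (edgeR, all 4 mice). In it 37 were called lower and 1 higher in the homozygous comparison, and 14 of the genes described in full were among them. Among these 14, on the log2 scale, the difference was farthest below 0 for Trim30a (-4.72), Oas3 (-4.52), Ifit3 (-3.89), Ifi27l2a (-3.87), Oas2 (-3.66), Ifit3b (-3.65), Irf7 (-3.24), Herc6 (-3.19) and Oasl2 (-3.06). It was nearer 0 for Ifi44 (-2.20), Parp14 (-2.15), Ifih1 (-1.94) and Eif2ak2 (-0.847). Ifi44l was the only one of the 40 genes called in the other direction, at 5.06, and the hom control was the mouse in which it was nearly absent. The 4 groups of this test are 1 mouse each, so genotype and mouse cannot be told apart.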

How the results depend on the processing

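Median log2 fold changes of the 40 genes kept their direction under all alternatives, while counts of called genes did not keep their size. In the heterozygous comparison 21 genes were called higher, and 37 were with no filter, 37 with DESeq2, 32 with only the 2 mice fitted, 0 to 27 with 1 tumor left out, and 0 without the 2 tumors that held muscle transcripts, an alternative chosen after seeing the data. Calls higher over all genes moved too, from 604 to 1687 with no filter, 1398 with DESeq2, 888 with only the 2 mice fitted, 9 to 678 with 1 tumor left out and 1 without the tumors with muscle. In the homozygous comparison 28 were called lower, and 10 with only the 2 mice fitted, 3 to 25 with 1 tumor left out, and 9 without the tumors with muscle, while over all genes 1709 were lower, and 689, 445 to 1410 and 563 in those fits. The difference between comparisons was called lower for 37, and for 21 without the tumors with muscle (2907 and 932 over all genes), and its median of -2.20 ranged from -1.92 to -2.57 with 1 tumor left out. Between the controls 37 were higher, 5 to 37 with 1 tumor left out and 2 without the tumors with muscle, against 1368, 125 to 1576 and 60 over all genes. Between the KO mice 4 were lower, 7 with scaling by library size alone, 18 with no filter, 8 with DESeq2, 1 with only the 2 mice fitted, 0 to 3 with 1 tumor left out (median -0.328 to -0.761) and 0 without the tumors with muscle, where the counts over all genes were 1178, 1353, 2580, 1964, 543, 132 to 1040 and 98 in the same order. Leaving out tumors leaves 1 sample in an arm, which is assumed to vary like the other groups, and the cause of the other changes was not tested. Scaling by library size alone moved the median of all genes from -0.02 to -0.12 in the difference between comparisons, and its heterozygous calls over all genes were 754 higher and 148 lower, against 604 and 286. For single genes described in full, 439 of 540 values kept their call, 88 lost and 13 gained it, and none changed sign. No paired analysis was possible because the tumors compared came from different mice.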
